A study of Mus musculus with 10 samples.

Results

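Gas5, other noncoding host genes of small nucleolar RNAs (snoRNAs) and the nuclear long noncoding RNAs Malat1 and Neat1 were followed across bone marrow B-cell progenitors sorted by GFP. The 9 genes were found by their symbols among the 55573 gene identifiers of the count table: 7 snoRNA hosts (Gas5, Snhg1, Snhg3, Snhg5, Snhg6, Snhg8 and Snhg12) and the 2 nuclear RNAs. The cells came from mice of the genotype PAX5-ELN H2B-GFP, which carry PAX5-ELN, a leukemia fusion of PAX5, a transcription factor of B cells, with elastin, and a histone H2B tagged with GFP that is diluted when cells divide. The label doxycycline and the time of 35 days are shared by all libraries. The 5 GFP high libraries are labelled quiescent and the 5 GFP low libraries proliferating. No library without PAX5-ELN or without doxycycline is among them, and the promoters that drive the transgenes and the age of the mice are not given in the sources used here. Nothing in the labels ties each library to an animal of its own, so p-values cover only the spread between these samples, which may be technical.

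Small nucleolar RNAs guide the chemical modification and processing of ribosomal and other RNAs, and in mammals most are cut from introns of host genes. The spliced noncoding exons of hosts such as Gas5 are degraded by nonsense-mediated decay while they are translated. Gas5 was named for its accumulation in growth-arrested mouse cells. Malat1 and Neat1 are not snoRNA hosts: Malat1 gathers at nuclear speckles, where splicing factors are stored, and Neat1 is the RNA scaffold of paraspeckles, nuclear bodies that hold RNA-binding proteins.

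Total counts were 11347097 to 13838769 in the GFP high libraries, against 10640894 to 14858520 in the GFP low libraries. Levels are given as CPM, counts scaled to library size, in which 3 counts correspond to 0.202 to 0.282 CPM, a limit that covers counting error only. The proliferation genes Mki67 and Ccnb2, which follow the label, had log2 fold changes of -1.19 and -1.45, GFP high over GFP low (adjusted p = 0.00664 and 6.18e-06 by the quasi-likelihood test of edgeR). Of 14 markers of B-cell progenitors, all were tested and 5 rose in GFP high, where 12.0% of all tested genes were higher, while the other 9 did not pass. Libraries with the same number in both groups deviated together, and the 4 libraries numbered 4 and 5 stood apart from the other 6 in many of the genes described here. Results are therefore given from the fit without the number and, where it changes the call, from the fit with the number as a block. In these sorted pools, fewer cells that contain an RNA and less of that RNA per cell cannot be told apart.

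Malat1 was the member that separated the groups, at about double the level in GFP high, while none of the tested snoRNA hosts, Gas5 included, passed the test in either direction. Neat1 had a difference of the same size as Malat1 but a much wider spread, and passed with the replicate number as a block but not without it. Of the 8 members with enough counts to be tested, 1 passed an adjusted p of 0.05 (Malat1), against 27.5% of all 12772 tested genes. With the replicate block 2 members passed (Malat1 and Neat1), against 41.8% of all tested genes. The lowest unadjusted p among the hosts was 0.539, and DESeq2, which called 27.1% of the genes it tested, called none of them.

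**Figure D1:**
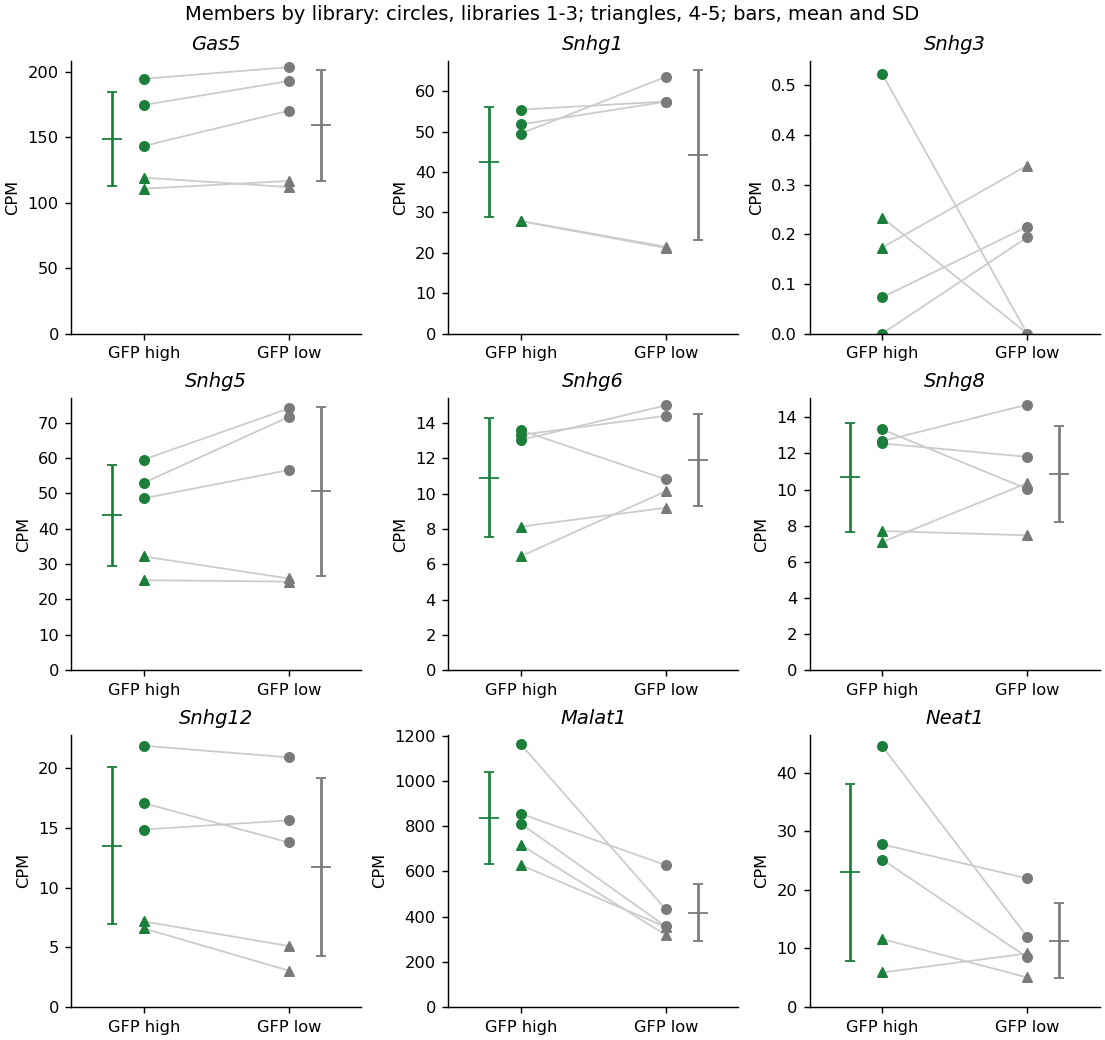
CPM of each member (vertical axis, from 0) in GFP high (green, left) and GFP low (grey, right), with lines joining libraries of the same number, circles for libraries 1 to 3, triangles for libraries 4 and 5, and bars for the mean and SD of 5 libraries (none for Snhg3). The 5 GFP high libraries of Malat1, at 628 to 1162 CPM, lie above the 5 GFP low libraries at 318 to 627 CPM. The hosts overlap between the groups. Triangles of the tested hosts lie low in both groups, except that of Snhg8 in GFP low library 5, and Snhg3 does not show this order.

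Gas5, at chr1:161034422-161038539 on the forward strand of GRCm38, is the host of 10 annotated snoRNA rows. Its level was 195, 144, 175, 119 and 111 CPM in GFP high libraries 1 to 5, against 204, 170.5, 193, 112 and 117 CPM in GFP low libraries 1 to 5. The ranges of the groups overlap almost fully, and the lowest values of both groups are those of libraries 4 and 5. Gas5 averaged 149 ± 35.9 CPM in GFP high, against 159 ± 42.7 CPM in GFP low (n = 5 per group, SD), a log2 fold change of -0.10 ± 0.20 (SE; edgeR adjusted p = 0.753). The 95% confidence interval of the fold change ran from 0.692 to 1.26, and from 0.852 to 1.04 with the replicate block (log2 fold change -0.09 ± 0.07, edgeR adjusted p = 0.300). Within pairs of the same number, Gas5 was higher in GFP high in 1 of 5.

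Snhg1 lies at chr19:8723475-8726443 on the forward strand and holds 8 annotated snoRNA rows, among them Snord22. Its level was 49.5, 51.8, 55.4, 27.9 and 27.8 CPM in GFP high libraries 1 to 5, against 63.5, 57.4, 57.4, 21.5 and 21.2 CPM in GFP low libraries 1 to 5. Both groups fall into the same pattern, with libraries 4 and 5 far below the others. The log2 fold change was -0.06 ± 0.33 (edgeR adjusted p = 0.922), with an interval from 0.583-fold to 1.59-fold that narrowed to 0.855-fold to 1.21-fold with the block.

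Snhg5, at chr9:88521050-88522929 on the reverse strand, carries Snord50a and Snord50b. It stood at 48.6, 53.0, 59.6, 32.2 and 25.5 CPM in GFP high libraries 1 to 5, against 56.6, 71.6, 74.0, 25.9 and 25.05 CPM in GFP low libraries 1 to 5. Here too the groups overlap, and libraries 4 and 5 are the low ones. The log2 fold change was -0.21 ± 0.33 (edgeR adjusted p = 0.681), and -0.14 ± 0.11 with the block, where the interval was 0.772-fold to 1.07-fold.

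Snhg12, at chr4:132308623-132311024 on the forward strand, is the host of Snora16a, Snora44, Snora61 and Snord99. It had 14.9, 17.1, 21.9, 7.16 and 6.58 CPM in GFP high libraries 1 to 5, against 15.6, 13.8, 20.9, 5.11 and 3.05 CPM in GFP low libraries 1 to 5. Its spread over library numbers was the widest of the tested hosts, and its groups overlap. The log2 fold change was 0.21 ± 0.48 (edgeR adjusted p = 0.777), and 0.34 ± 0.18 with the block (edgeR adjusted p = 0.151), where 4 of 5 pairs were higher in GFP high and the interval ran from 0.964-fold to 1.66-fold.

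For Snhg6 and Snhg8 the ranges are given. Snhg6, the host of Snord87 at chr1:9941959-9944118 on the reverse strand, ranged from 6.46 to 13.6 CPM in GFP high, against 9.21 to 15.01 CPM in GFP low. The log2 fold change was -0.12 ± 0.24 (edgeR adjusted p = 0.740), with an interval from 0.640-fold to 1.32-fold. Snhg8, the host of Snora24 at chr3:123507552-123508404 on the reverse strand, ranged from 7.10 to 13.3 CPM in GFP high, against 7.47 to 14.7 CPM in GFP low. The log2 fold change was -0.03 ± 0.24 (edgeR adjusted p = 0.949), with an interval from 0.688-fold to 1.40-fold.

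Snhg3, the host of Snora73a and Snora73b at chr4:132348014-132353686 on the reverse strand, was close to the limit of detection. Its counts were 1, 6, 0, 3 and 2 in GFP high libraries 1 to 5, against 3, 0, 2, 0 and 5 in GFP low libraries 1 to 5, a total of 22. It did not pass the filter on low counts and was not tested. It shares 135 exonic bases with Rcc1 on the same strand, whose product charges the small GTPase Ran at chromatin and which is itself annotated as a snoRNA host. Snhg3 also shares 705 of its 986 exonic bases with Gm17300 on the opposite strand. The sources used here do not state how reads in shared exons were assigned or whether strand was used. The counts of Snhg3 may therefore understate its level. Rcc1 averaged 79.6 ± 5.96 CPM in GFP high, against 138 ± 15.3 CPM in GFP low (n = 5 per group, SD), a log2 fold change of -0.79 ± 0.09 (edgeR adjusted p = 8.92e-05).

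**Figure D2:**
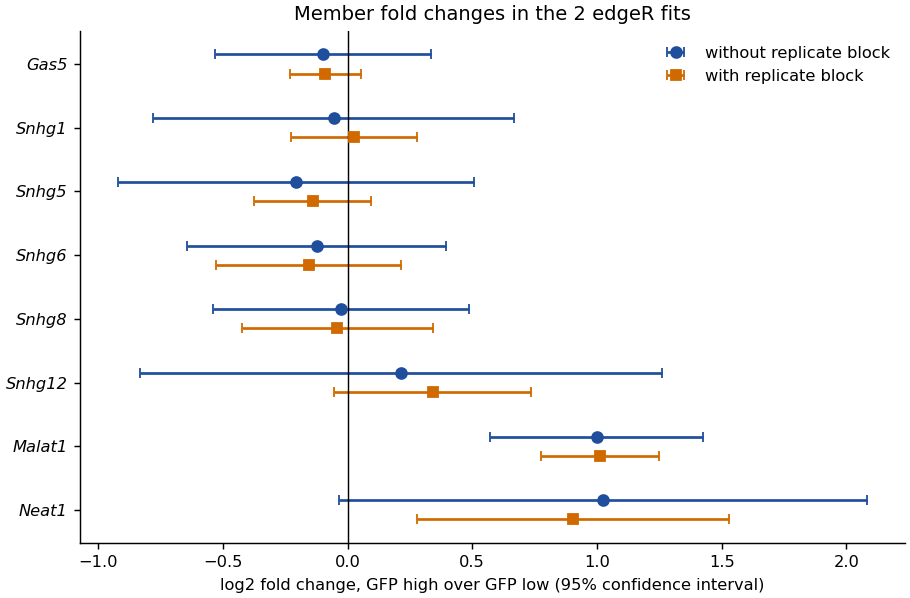
Log2 fold change of GFP high over GFP low for the 8 tested members (points, horizontal axis) with 95% confidence intervals (bars), from edgeR without the replicate block (blue circles) and with it (orange squares). The intervals of all 6 hosts cross 0 in both fits, those of Malat1 lie above 0 in both, and that of Neat1 lies above 0 only with the block.

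Most tested hosts differed between library numbers while their groups overlapped. In Gas5, Snhg1, Snhg5, Snhg6 and Snhg12, each of the 6 libraries numbered 1 to 3 lay above each of the 4 libraries numbered 4 and 5, whichever group they came from. This is 5 of the 8 tested members, against 5.83% of all tested genes in the same order. The share of genes in the reverse order was not counted. The numbers also differed beyond the hosts. Over all genes with at least 20 counts in a pair, chi-square per gene within a group was 31.2 to 49.8 between libraries 1 to 3 and libraries 4 and 5. It was 7.33 to 22.3 between the other pairs. In Gas5 the 6 libraries spanned 144 to 204 CPM and the other 4 spanned 111 to 119 CPM. In Snhg1 they spanned 49.5 to 63.5 CPM and 21.2 to 27.9 CPM, and in Snhg12 13.8 to 21.9 CPM and 3.05 to 7.16 CPM. Snhg8 missed the pattern by 1 library, with GFP low library 2 at 10.04 CPM below GFP low library 5 at 10.4 CPM. Malat1, whose groups do not overlap, cannot show this pattern across both groups. Within each group alone its libraries 1 to 3 also lay above libraries 4 and 5. Neat1 had the same order within GFP high, while in GFP low library 2, at 8.48 CPM, lay below library 5, at 9.14 CPM. The labels give the numbers no meaning, so these are samples and not a labelled batch, and no test was made. Over the 10 libraries, the log2 CPM of Gas5 had a Pearson r of 0.917 with Snhg1, 0.889 with Snhg5 and 0.311 with Malat1, with libraries 4 and 5 apart from the others in the first 3 of these genes. The r of Gas5 was 0.816 with Snhg6, 0.825 with Snhg8, 0.843 with Snhg12 and 0.667 with Neat1. The 5 tested genes outside the members with the highest r with Gas5 were Pde12, Naa16, Phf13, Zfas1 and Thap6, at 0.982, 0.980, 0.973, 0.967 and 0.959. Zfas1 is itself a noncoding snoRNA host.

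**Figure D3:**
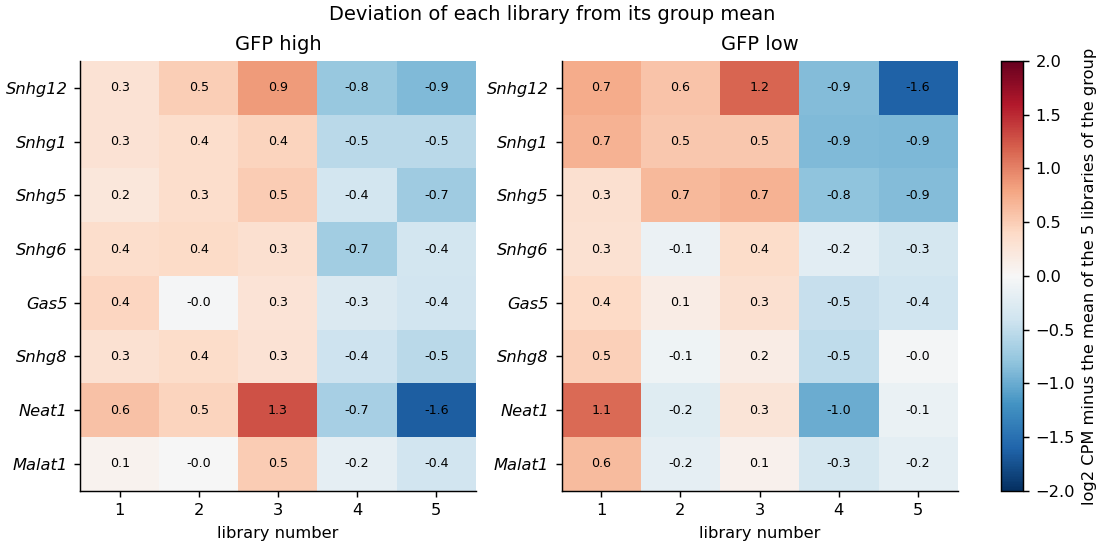
Deviation of each library's log2 CPM from the mean of its group (colour and printed value) for the tested members (rows) and library numbers (columns), in GFP high (left) and GFP low (right). Columns 4 and 5 are blue, below the group mean, for the hosts in both groups, except Snhg8 in GFP low library 5, which is at its group mean.

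The starts of the hosts are shown because translation-related mammalian genes often begin transcription within a pyrimidine tract. Any link of these starts to the movement of the hosts across libraries was not tested. Each stretch runs from 40 bases before to 25 bases after the start in RefSeq on GRCm38.p6, read 5′ to 3′ on the gene's strand. The table used held starts for 7 of the members. Capitals mark TATAAA or TATATA between 20 and 40 bases before the start, and a run of at least 6 pyrimidines (C or T) that begins between 5 bases before and 10 bases after the start. Gas5 is shown at the second of its listed starts, Gas5 chr1:161035126-161035190 forward, Snhg1 chr19:8723447-8723511 forward, Snhg5 chr9:88522873-88522937 reverse, Snhg8 chr3:123508312-123508376 reverse, Snhg12 chr4:132308638-132308702 forward, and Malat1 chr19:5802648-5802712 reverse for comparison.
Gas5: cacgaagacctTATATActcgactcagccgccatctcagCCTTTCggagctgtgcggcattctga
Snhg1: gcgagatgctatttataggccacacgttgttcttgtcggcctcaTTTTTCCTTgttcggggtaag
Snhg5: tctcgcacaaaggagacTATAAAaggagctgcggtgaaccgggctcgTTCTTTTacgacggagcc
Snhg8: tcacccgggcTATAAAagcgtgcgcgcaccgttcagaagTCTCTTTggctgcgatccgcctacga
Snhg12: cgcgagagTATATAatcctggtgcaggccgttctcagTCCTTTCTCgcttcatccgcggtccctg
Malat1: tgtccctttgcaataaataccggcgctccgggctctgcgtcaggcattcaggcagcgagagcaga

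A pyrimidine run at the start was found in Gas5, Snhg1, Snhg5, Snhg8 and Snhg12, and in 17.05% of all 32851 promoter windows in the table. TATAAA or TATATA at 20 to 40 bases before the start was found in Gas5, Snhg5, Snhg8 and Snhg12, and in 2.73% of all windows. Either hexamer occurs anywhere in the 300-base window on the sense strand in 12.5% of windows, and on either strand in 17.1%. Both features together were found in 0.633% of windows. Malat1, Snhg3 and the other listed start of Gas5 had neither at these positions. A match of letters is a description and not a measured start or binding site.

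The snoRNAs themselves were almost unseen. The 7 hosts hold 29 snoRNA rows on their own strand, and 28 of these had 0 counts in all 10 libraries. Of the 29 rows, 27 overlap annotated exons of their host on the same strand, and how reads in shared exons were assigned is not stated in these sources. The other 2, Snora73b and Snord87, lie in introns, and Snord87, in an intron of Snhg6, had 25 counts in all. Across the table, 260 of 1558 snoRNA and scaRNA rows had any count and 6 could be tested, together 4008 of 129994434 counts. The libraries were made from polyA RNA, a class that mature snoRNAs do not belong to, and a count of 0 on these rows says nothing of the snoRNA level. Snord47 of Gas5, at chr1:161038082-161038158 on the forward strand, and Snord87, at chr1:9942463-9942549 on the reverse strand, are shown from GENCODE M21 on GRCm38 to illustrate the pieces cut from these hosts, with box C (TGATGA) and box D (CTGA) in capitals.
Snord47: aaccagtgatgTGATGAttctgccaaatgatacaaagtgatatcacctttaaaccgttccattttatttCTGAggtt
Snord87: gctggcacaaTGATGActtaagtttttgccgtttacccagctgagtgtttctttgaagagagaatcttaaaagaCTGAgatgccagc

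Malat1, at chr19:5795690-5802672 on the reverse strand, was the most abundant member and ranked 163 of the 12772 tested genes by mean CPM. Its level was 855, 811, 1162, 718 and 628 CPM in GFP high libraries 1 to 5, against 627, 356, 432, 318 and 354 CPM in GFP low libraries 1 to 5. The groups do not overlap, but the margin is narrow, since GFP high library 5 and GFP low library 1 have almost the same value. Malat1 averaged 835 ± 203 CPM in GFP high, against 417 ± 124 CPM in GFP low (n = 5 per group, SD). Of all tested genes, 7.92% had every GFP high library above every GFP low library.

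Malat1 had a log2 fold change of 1.0 ± 0.20 (SE; edgeR adjusted p = 0.00259), and its 95% interval was 1.49-fold to 2.69-fold. With the replicate block it was 1.01 ± 0.11 (edgeR adjusted p = 1.2e-05). Malat1 was higher in GFP high in 5 of 5 pairs, by 0.45, 1.19, 1.43, 1.17 and 0.83 on the log2 scale in pairs 1 to 5, a pattern shared by 22.9% of tested genes. The call held in all 19 alternatives, among them libraries 1 to 3 alone at 1.02 and libraries 4 and 5 alone at 0.99.

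The 3′ end of Malat1 is made by RNase P, which cuts off a tRNA-like RNA, and not by the usual cleavage and polyadenylation. The mature RNA ends in an A-rich tract that folds back on U-rich motifs. The stretch at chr19:5795958-5796044 on the reverse strand is shown from the GENCODE M21 transcript because the libraries were of polyA RNA. Capitals mark its longest run of A, 12 bases long, which ends 298 bases before the end of the 6983-base annotated transcript.
Malat1 A-rich tract: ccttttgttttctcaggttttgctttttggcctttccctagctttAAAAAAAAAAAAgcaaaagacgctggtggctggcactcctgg
How far capture of an RNA without a poly(A) tail differed between libraries was not tested.

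Neat1 lies at chr19:5824708-5845478 on the reverse strand, near Malat1. Its level was 27.8, 25.2, 44.5, 11.6 and 5.89 CPM in GFP high libraries 1 to 5, against 21.9, 8.48, 12.01, 5.03 and 9.14 CPM in GFP low libraries 1 to 5. The groups overlap: GFP high library 5 is below 4 of the 5 GFP low libraries, and GFP low library 1 is above 2 of the 5 GFP high libraries. Neat1 averaged 23.0 ± 15.1 CPM in GFP high, against 11.3 ± 6.44 CPM in GFP low (n = 5 per group, SD).

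Neat1 had a log2 fold change of 1.02 ± 0.49 (edgeR adjusted p = 0.140), with an interval from 0.976-fold to 4.24-fold. With the replicate block Neat1 rose by 0.90 ± 0.29 on the log2 scale (edgeR adjusted p = 0.0236), with an interval from 1.21-fold to 2.88-fold. It was higher in GFP high in pairs 1 to 4, by 0.34, 1.57, 1.89 and 1.21, and lower in pair 5, at -0.63. The difference without the block was 1.22 in libraries 1 to 3 alone (edgeR adjusted p = 0.0275) and 0.29 in libraries 4 and 5 alone (edgeR adjusted p = 0.656). Without GFP high library 3 it was 0.65, and without GFP high library 5 it was 1.30 (edgeR adjusted p = 0.0387). Neat1 has a short polyadenylated and a long form that share their 5′ part, and counts per gene do not tell the forms apart.

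Malat1 and Neat1 deviated together between libraries. Over the 10 libraries their log2 CPM had a Pearson r of 0.814, which was 0.911 after group means were taken out, with library numbers and depth shared between the points. The genes outside the members most like Malat1 over the 10 libraries were Tns3, Zbtb49, Rnf111, Map3k14 and Gm11131, with r of 0.983, 0.983, 0.982, 0.975 and 0.975. With group means taken out, Malat1 had an r of 0.788 with Gas5, where it had 0.311 before.

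The contrast of hosts with nuclear RNAs within a library does not depend on how libraries are scaled to each other. The mean log2 CPM of the 6 tested hosts was 4.71 ± 0.50 in GFP high, against 4.71 ± 0.61 in GFP low (n = 5 per group, SD). That mean minus the log2 CPM of Malat1 was -4.96 ± 0.28 in GFP high, from -5.29 to -4.63, and -3.95 ± 0.44 in GFP low, from -4.45 to -3.48. The groups do not overlap in this difference. Malat1 had 4.39, 5.65, 6.64, 6.02 and 5.67 times the CPM of Gas5 in GFP high libraries 1 to 5, against 3.08, 2.09, 2.23, 2.84 and 3.03 times in GFP low libraries 1 to 5. The ratio was 5.67 ± 0.82 in GFP high, against 2.65 ± 0.46 in GFP low, again without overlap. Since the host mean was alike in both groups and Malat1 alone does not overlap, these separations largely repeat that of Malat1. By CPM alone, 7.92% of all tested genes had every GFP high library above every GFP low library. The share of genes that separate against the hosts was not counted. Against Neat1 the difference was 0.51 ± 0.70 in GFP high, against 1.38 ± 0.55 in GFP low, and the groups overlap. A ratio within a library shows unequal change and not which RNA changed.

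**Figure D4:**
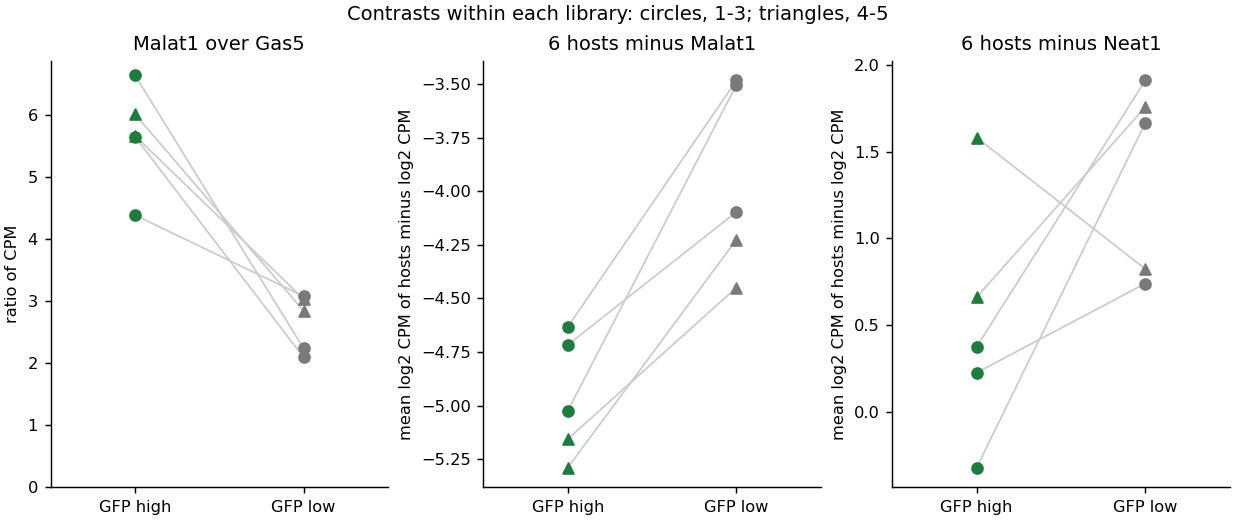
Ratio of Malat1 to Gas5 CPM (left panel, axis from 0), and the mean log2 CPM of the 6 tested hosts minus the log2 CPM of Malat1 (middle) and of Neat1 (right), in GFP high (green) and GFP low (grey), with lines joining libraries of the same number and triangles for numbers 4 and 5. The ratio is 4.39 to 6.64 in GFP high, against 2.09 to 3.08 in GFP low, and the only panel with overlapping groups is that of Neat1. The CPM of Malat1 alone does not overlap between the groups either.

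To compare genes with each other, counts were divided by the length of all annotated exons and scaled to a common total, as TPM. Malat1 stood at 407 ± 109.9 TPM in GFP high, against 191 ± 58.2 TPM in GFP low, followed by Gas5 at 134 ± 34.4 TPM in GFP high, against 135 ± 34.9 TPM in GFP low (n = 5 per group, SD). Below them in GFP high came Snhg5, Snhg1, Snhg8, Snhg6 and Snhg12 at 86.1, 48.7, 42.5, 32.4 and 19.2 TPM, then Neat1 at 3.796 TPM and Snhg3 at 0.684 TPM. The order was the same in GFP low, at 92.5, 47.2, 40.6, 33.1, 15.4, 1.74 and 0.487 TPM. In GFP high, the mean ± SD of neighbours in this order overlapped from Gas5 down to Snhg12 and between Neat1 and Snhg3, but not between Malat1 and Gas5 or between Snhg12 and Neat1. In GFP low the mean ± SD of Malat1 and Gas5 overlapped, while those of Snhg12, at 15.4 ± 9.62 TPM, and Neat1, at 1.74 ± 1.01 TPM, did not. The long form of Neat1 and retained introns of the hosts are part of these lengths, so the TPM of a short or fully spliced form is understated.

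All long noncoding RNA genes together took 0.879 ± 0.04% of counts in GFP high, against 0.761 ± 0.05% in GFP low. Without Malat1 the share was 0.794 ± 0.04% in GFP high, against 0.720 ± 0.04% in GFP low. Malat1 made up 9.62 ± 2.19% of long noncoding RNA counts in GFP high, against 5.33 ± 1.19% in GFP low. Outside the members, 773 of 10140 long noncoding RNA genes were tested, of which 78 rose and 27 fell in GFP high (edgeR adjusted p below 0.05), with a median log2 fold change of 0.37, against 1538 higher (12.0%), 1973 lower (15.4%) and a median of 0.03 over all tested genes. With the block 141 rose and 40 fell, against 20.7% higher and 21.0% lower over all tested genes. A list of 30 named long noncoding RNAs had 16 tested, with 1 higher and 1 lower, and 3 higher and 2 lower with the block. Pvt1, which neighbours Myc and often changes with it, averaged 6.94 ± 1.95 CPM in GFP high, against 13.9 ± 3.75 CPM in GFP low, a log2 fold change of -1.0 ± 0.25 (edgeR adjusted p = 0.0101). Ftx, a gene of the X-inactivation centre, averaged 48.2 ± 5.39 CPM in GFP high, against 38.5 ± 4.12 CPM in GFP low, a log2 fold change of 0.32 ± 0.11 (edgeR adjusted p = 0.0451). With GFP high library 3, 4 or 5, or GFP low library 2, 3 or 5, left out, the list of 30 had 0 genes called higher.

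Among other noncoding snoRNA hosts, 10 of 19 listed genes were tested and 0 passed the threshold in either direction without the block, with a median log2 fold change of 0.12. At an unadjusted p under 0.05, 1 was higher and 0 were lower, and DESeq2, which called 12.8% of its tested genes higher and 14.3% lower, called 1 higher and 0 lower. With the replicate block 3 rose and 1 fell of the 10, where 20.7% of all tested genes were higher and 21.0% lower. Snhg20 averaged 6.10 ± 2.52 CPM in GFP high, against 3.0 ± 1.395 CPM in GFP low, and its log2 fold change was 1.03 ± 0.37 without the block (edgeR adjusted p = 0.0571) and 1.05 with it (edgeR adjusted p = 0.00593). Snhg17 and 1810032O08Rik, which RefSeq names Snhg16, rose by 0.64 and 0.78 on the log2 scale with the block (edgeR adjusted p = 0.0106 and 0.00529), each higher in 5 of 5 pairs. Snhg15 fell by 0.43 with the block (edgeR adjusted p = 0.00368), lower in 5 of 5 pairs.

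Most listed protein-coding snoRNA hosts fell. Of 53 listed protein-coding hosts, 36 fell and 1 rose in GFP high, with a median log2 fold change of -0.37, where 15.4% of all tested genes were lower and 12.0% higher. With the block 43 fell and 3 rose, where 21.0% of all tested genes were lower and 20.7% higher. Rps2, a ribosomal protein, averaged 364 ± 38.4 CPM in GFP high, against 556 ± 49.6 CPM in GFP low, a log2 fold change of -0.61 ± 0.09 (edgeR adjusted p = 0.000400). Eif4g2, a translation initiation factor, had -0.32 ± 0.05 (edgeR adjusted p = 0.000503). The list was named by hand, so all genes that span an annotated snoRNA or scaRNA on their strand were counted as well. Outside the members there were 343, of which 240 were tested, 15 rose and 79 fell, with a median of -0.14. With the block 33 rose and 97 fell.

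Ribosomal protein genes made up 30 of the 79 falls. Of 31 such hosts 30 fell and 0 rose, also 0 at an unadjusted p and by DESeq2, with a median of -0.43. The other 188 protein-coding hosts had 15 higher and 46 lower, with a median of -0.07, and 29 higher and 60 lower with the block. Hosts of other biotypes had 0 higher and 3 lower of 21, with 14.3% of the list lower. For these 21, 2 higher and 4 lower passed an unadjusted p, and DESeq2 called 1 higher and 3 lower. The block gave 4 higher and 6 lower of the 21. For comparison, 12.0% of all tested genes were higher and 15.4% lower without the block. With the block these shares of all tested genes were 20.7% and 21.0%. Among annotated hosts that passed the threshold in edgeR without the block, the largest falls were those of Gsr, Map2, Top2a, Cep55 and Pola1, with log2 fold changes of -1.30, -1.28, -1.05, -1.05 and -0.98. Top2a untangles DNA in dividing cells, Cep55 acts in cytokinesis and Pola1 is a DNA polymerase subunit. The largest rises among these hosts were those of Pcdhgb1, Dirc2, Eng, Sash1 and Csgalnact2, at 1.61, 0.96, 0.84, 0.84 and 0.74. Pcdhgb1 was near the counting limit, at 1.74 ± 0.83 CPM in GFP high, against 0.568 ± 0.43 CPM in GFP low. Its SE was 0.56 (edgeR adjusted p = 0.0487).

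**Figure D5:**
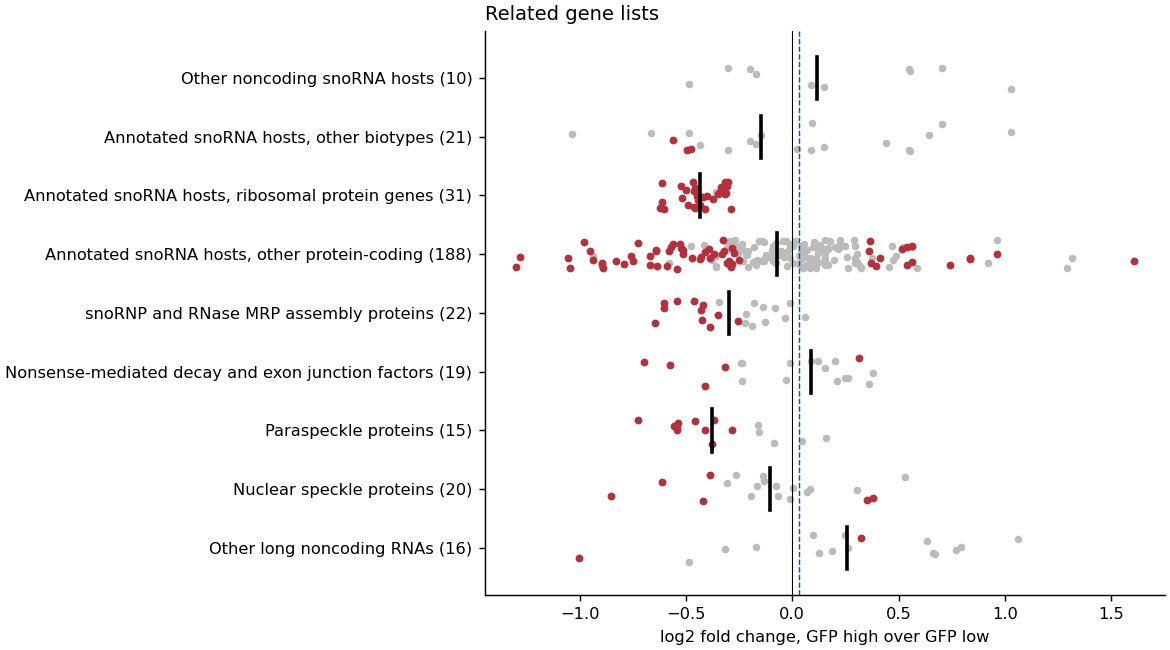
Log2 fold change of GFP high over GFP low (horizontal axis) for each tested gene of the lists related to the members (number of genes in brackets), without the replicate block. Red points passed the threshold and grey points did not, black bars are list medians, and the dashed line is the median of all tested genes at 0.03; the median of ribosomal protein hosts is -0.43 and that of other noncoding hosts 0.12.

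The proteins that assemble snoRNAs into particles were lower in GFP high where they passed the test. Of 22 tested, 11 fell and 0 rose, with 0 rising also at an unadjusted p and by DESeq2, and the median was -0.30. Among all tested genes 15.4% were lower and 12.0% higher. With the block 12 fell and 0 rose, where 21.0% of all tested genes were lower and 20.7% higher. Fbl, the methyltransferase of box C/D particles, averaged 81.0 ± 14.003 CPM in GFP high, against 127 ± 4.74 CPM in GFP low, a log2 fold change of -0.65 ± 0.11 (edgeR adjusted p = 0.00121). Nhp2, a subunit of box H/ACA particles, and Pih1d1, part of the R2TP assembly complex, both had -0.60 (edgeR adjusted p = 0.00247 and 0.00191).

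Factors of nonsense-mediated decay and the exon junction complex had calls in both directions. Of 19 tested, 1 rose and 4 fell, 5.26% and 21.1% of the list, where 12.0% of all tested genes were higher and 15.4% lower, and the median was 0.09. With the block 4 rose and 6 fell, 21.1% and 31.6% of the list, where 20.7% of all tested genes were higher and 21.0% lower. The falls were Magoh, Magohb, Eif4a3 and Rbm8a, all core subunits of the exon junction complex, at -0.57, -0.70, -0.41 and -0.32. The rise was Xrn1, the cytoplasmic 5′ to 3′ exonuclease, at 0.31 ± 0.11 (edgeR adjusted p = 0.0474). That call is borderline. With GFP high library 1 or 3, or GFP low library 2, 3, 4 or 5, left out, 0 genes of this list were called higher. Upf1, the central helicase of the pathway, had -0.01 ± 0.09 (edgeR adjusted p = 0.948).

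Most genes for paraspeckle proteins fell, while without the block the calls among genes for speckle proteins were near the share of all tested genes. Of 15 paraspeckle proteins 10 fell and 0 rose, with 0 rising also at an unadjusted p and by DESeq2, and the median was -0.38. Nono and Sfpq, which bind Neat1 directly, had -0.41 ± 0.06 and -0.38 ± 0.11 (edgeR adjusted p = 0.000593 and 0.0282), and Rbm14, Hnrnpk and Ewsr1 had -0.56, -0.37 and -0.46. Of 20 speckle proteins, 2 rose and 4 fell, with a median of -0.10. Among all tested genes 12.0% were higher and 15.4% lower. With the block 4 of the 20 rose and 7 fell, where 20.7% of all tested genes were higher and 21.0% lower. Son and Srrm2, the scaffold proteins of speckles, rose by 0.35 ± 0.11 and 0.38 ± 0.11 (edgeR adjusted p = 0.0339 and 0.0233). With GFP low library 2, 3 or 4 left out, 0 of the 20 speckle proteins were called higher. The splicing factors Srsf1 and Srsf2 fell by 0.85 ± 0.10 and 0.61 ± 0.07 (edgeR adjusted p = 7.22e-05 and 8.55e-05).

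The genes that start nearest to the members on the other strand were examined as well. Zbtb37, whose start lies 427 bases from that of Gas5, had a log2 fold change of 0.20 ± 0.25 (edgeR adjusted p = 0.590). Slc3a2, an amino acid transporter subunit that starts 106 bases from Snhg1, had -0.10 ± 0.15 (edgeR adjusted p = 0.645). The gene nearest to the start of Malat1, Gm37376 at 731 bases, had 0 counts in every library. Its exons share 453 bases with those of Malat1 on the opposite strand. How such reads were assigned is not stated, so its level is not known from these counts.

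Markers of other cells stand beside the rise of Malat1 as follows, with calls from edgeR without the block. The 8 T-cell markers summed to 0.437 to 1.30 CPM in GFP high, against 0.157 to 0.872 CPM in GFP low, with Cd8a at 0 in every library and 0 of them tested. The 8 neutrophil markers summed to 3.58 to 9.87 CPM in GFP high, against 3.39 to 7.18 CPM in GFP low, and of 3 tested 0 passed. The 7 monocyte and macrophage markers summed to 80.03 to 125 CPM in GFP high, against 45.5 to 87.7 CPM in GFP low, with 2 of 4 tested higher and 0 lower. The 6 NK-cell markers summed to 187 to 327 CPM in GFP high, against 63.1 to 166 CPM in GFP low, with Gzma at 0 in every library, and 1 of 2 tested was higher and 0 lower. The 6 stroma and endothelium markers summed to 254 to 305 CPM in GFP high, against 142 to 177 CPM in GFP low, with 1 of 3 tested higher and 0 lower. The NK-cell and stroma sums did not overlap between the groups and were higher in GFP high. Only 2 of the 6 NK-cell markers and 3 of the 6 stroma markers had enough counts to be tested. These sums therefore rest mostly on few genes and do not measure how many such cells were present. The erythroid and B-cell progenitor sums, given below, did not overlap either, with the erythroid sums lower in GFP high. Among all tested genes, 12.0% were called higher and 15.4% lower, and 7.92% had every GFP high library above every GFP low library.

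The 8 erythroid markers summed to 511 to 796 CPM in GFP high, against 819 to 1094 CPM in GFP low, with 1 of 6 tested higher and 1 lower. The 5 megakaryocyte markers summed to 4.01 to 6.31 CPM in GFP high, against 5.04 to 9.55 CPM in GFP low, with Gp1bb at 0 in every library, and of 2 tested 0 passed. The 6 plasma-cell markers summed to 273 to 355 CPM in GFP high, against 269 to 336 CPM in GFP low, with 2 of 5 tested higher and 1 lower. The 14 B-cell progenitor markers summed to 16160 to 19198 CPM in GFP high, against 12553 to 14604 CPM in GFP low. The part of any of these cells in the values of Malat1 or Neat1 was not tested.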

How the data were processed

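RNA of 10 sorted libraries was measured by sequencing of polyA RNA amplified with SMART-Seq v4, per the labels' protocols. The authors deposited raw counts of reads for each gene; the submitters' processing notes name mm10, STAR, featureCounts and DESeq2 without roles or versions. Strand use and the treatment of reads with several matches are not given in the sources used here, so overlapping genes and close copies are uncertain. Groups and numbers were read from the titles. Of 55573 identifiers, 55480 matched GENCODE M21 (GRCm38); the other 93 held 4219 counts.

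Counts were tested in R 4.3.3 with edgeR 4.0.16 (filterByExpr, TMM, quasi-likelihood test, Benjamini-Hochberg adjustment over 12772 genes, threshold 0.05) without covariates. CPM used TMM-scaled totals, and log2 CPM for likeness a prior count of 2. The common coefficient of variation was 0.249. The test was checked on simulated counts. The simulated libraries shared a common dispersion and held no effect of the library number, so the check does not cover such an effect. Libraries of 1 group all differed by more than sampling noise (lowest chi-square per gene 7.33). Same-numbered libraries deviated together (correlations 0.352, 0.248, 0.295, 0.349 and 0.353, each GFP high library closest to the GFP low library of its own number). The number was therefore treated as pairing in the fit with the block, while the main test did not use it. Alternatives were DESeq2 1.42.0, other scalings, no filter, the block, each library left out, and subsets of numbers.

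The members, gene lists and alternatives were chosen with earlier results of these data known. The text names the 9 members, the 3 tested genes of lowest p in each list, passing genes of the 2 noncoding lists, the 5 largest rises and falls among annotated hosts, divergent neighbours within 2 kb, and the 5 genes most like Gas5 and Malat1. Snhg15, Rbm8a, Xrn1, Upf1, Nono, Sfpq, Son and Srrm2 were chosen after their values were seen.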

Additional observations from a re-analysis of the deposited data

How the results depend on the processing

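Malat1 kept its direction and passed the threshold in all 19 alternatives, and the log2 fold change was 0.86 to 1.19 when single libraries were left out (edgeR adjusted p 0.000513 to 0.00963). Neat1 passed the threshold with the replicate block (0.90) and in replicates 1 to 3 alone (1.22) and without GFP high library 5 (1.30), and ranged from 0.65 to 1.42 with single libraries left out; DESeq2 gave 1.04 (adjusted p = 0.173), and 0.68 was found without both libraries numbered 3. The block changed the call of no other member. The hosts lay near 0 and changed sign without passing: Snhg1 with library totals alone (0.00061), with the block (0.025) and in replicates 4 and 5 alone (0.37), Snhg5 in replicates 4 and 5 alone (0.16), Snhg6 in replicates 1 to 3 alone (0.017), and Snhg8 with upper quartile scaling (0.011), library totals (0.025) and replicates 1 to 3 alone (0.10). With single libraries left out, Gas5 ranged from -0.19 to 0.0081, Snhg1 from -0.21 to 0.12, Snhg6 from -0.19 to 0.030, Snhg8 from -0.12 to 0.11 and Snhg12 from -0.018 to 0.55. The genes higher numbered 2645 with the block and 926 without both libraries numbered 3, against 1538. List medians that moved were those of decay factors (0.032 to 0.17) and speckle proteins (-0.19 to 0.0029) with single libraries left out, all annotated hosts (-0.091, library totals), hosts of other biotypes (0.092, replicates 4 and 5 alone), other protein-coding hosts (-0.022 with library totals and -0.021 in replicates 1 to 3 alone) and long noncoding RNAs (0.41 with library totals and 0.33 in replicates 4 and 5 alone). The causes were not tested. Snhg3 had too few counts for any statement.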
